A study of Mus musculus with 4 samples.

Results

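The Desert hedgehog pathway is described here through 7 genes, Dhh, Ptch1, Smo, Gli1, Gli2, Gli3 and Hhip, out of the 31053 genes listed in each count matrix. The genes were taken by symbol, and their levels were read in each of 4 mouse testis libraries and in cell classes set by marker genes. In brief, Dhh was found in Sertoli-like cells in all 4 libraries, and its response genes Ptch1, Gli1 and Hhip were found in stromal-like and myoid-like cells. After 2 days of culture the response genes stood at 0.207 to 0.339 times their level in the 9 dpp testis in the merged class of those cells, at 0.234 to 0.358 times in stromal-like and 0.416 to 0.459 times in myoid-like cells alone, while Dhh stood at 0.649 times its level. After 7 days of culture Dhh stood at 1.0 times its level in the 14 dpp testis. The response genes stood at 0.671 to 0.867 times their 14 dpp level in the merged class. Taken apart, they stood at 0.615 to 0.828 times in stromal-like cells but at 0.892 to 1.62 times in myoid-like cells.

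Hedgehog proteins are secreted ligands. Without ligand, the receptor Patched1 (Ptch1) holds the membrane protein Smoothened (Smo) inactive; binding of ligand frees Smoothened, which acts through the primary cilium on the GLI transcription factors. Gli1, Ptch1 and Hhip are themselves transcribed in response, so their RNA is widely used as a readout of signalling, and Ptch1 and Hhip bind the ligand and dampen the signal. In the testis Sertoli cells, the supporting cells of the seminiferous tubules, make Desert hedgehog. The known responding cells lie around and between the tubules, and Dhh is required in mice for Leydig cell differentiation and for the peritubular myoid layer.

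The study held 1 single-cell RNA sequencing library for each of 4 groups, all from C57BL/6 mice carrying an Acr-Gfp transgene. Testes taken 7 days postpartum (dpp) were fragmented and grown as organ pieces on agarose for 2 days or for 7 days, while the 9 dpp and 14 dpp testes were not cultured. Age plus culture time is thus 9 days in one pair of libraries and 14 days in the other, and these are the matched comparisons. The series title names inflammation in cultured testes. The text on library preparation in the labels speaks of female gonads, and the labels do not say how many animals went into a library. With 1 library per group no test between groups was possible, and culture cannot be told apart from the library itself. All intervals given are 95% intervals that cover counting error only.

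Annotated on GRCm38 (GENCODE M21), all 7 are protein-coding genes with a single identifier in the files. Dhh (ENSMUSG00000023000) lies at chr15:98891152-98898540 on the minus strand. The receptor gene Ptch1 (ENSMUSG00000021466) lies at chr13:63508328-63573598, minus strand. Smo (ENSMUSG00000001761) lies at chr6:29735503-29761365, plus strand. Gli1 (ENSMUSG00000025407) lies at chr10:127329882-127341974, minus strand. Gli2 (ENSMUSG00000048402) lies at chr1:118834132-119053619, minus strand. Gli3 (ENSMUSG00000021318) lies at chr13:15463235-15730026, plus strand. Hhip (ENSMUSG00000064325) lies at chr8:79965851-80058006, minus strand.

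The promoters of the ligand and of 2 response genes, both lower in the 2-day culture than at 9 dpp, are shown because their sequence is where a shared GLI motif could stand. RefSeq promoter entries (GRCm38.p6, 300 bases around the start) were found for 6 of the 7 genes. The 120 bases just before the start are printed 5′ to 3′ on the gene's strand, with GGGCGG, the GC box bound by SP factors, and its reverse complement CCGCCC in capitals. The windows are chr15:98898541-98898660 for Dhh, chr13:63565736-63565855 for Ptch1 and chr8:80058009-80058128 for Hhip, all on the minus strand. Ptch1 also has longer transcript models that begin further upstream, so its window lies inside the gene.
Dhh: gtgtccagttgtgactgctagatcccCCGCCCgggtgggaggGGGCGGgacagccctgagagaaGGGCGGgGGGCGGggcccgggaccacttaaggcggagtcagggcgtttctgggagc
Ptch1: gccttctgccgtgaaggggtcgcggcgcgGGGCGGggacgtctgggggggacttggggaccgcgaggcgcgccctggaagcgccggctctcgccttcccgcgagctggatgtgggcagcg
Hhip: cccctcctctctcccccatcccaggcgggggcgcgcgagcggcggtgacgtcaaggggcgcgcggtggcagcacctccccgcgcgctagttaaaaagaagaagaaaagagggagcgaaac
The Dhh window holds 4 GC boxes, the Ptch1 window 1 and the Hhip window 0. The GLI consensus GACCACCCA, searched on both strands over the whole 300 bases, was in 0 of the 6 entries and in 0.253% of all 32851 promoters of the table. With a motif so rare over all promoters, 0 of 6 tells little. GGGCGG, searched likewise, was in 5 of the 6 entries and in 35.7% of all promoters. The 6 entries were 61.7% to 76.3% G or C over their 300 bases. The part of this base content in the GGGCGG count was not tested.

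Rows of 4 values below always run from the 2-day to the 7-day culture and then from 9 to 14 dpp. The libraries held between 34491701 and 60829941 UMIs (unique molecular identifiers, the counted molecules), and 6877, 4816, 5150 and 6195 cells were kept. Across all pairs of libraries, 323 cell barcodes were shared, between 35 and 86 a pair. Each cell was given a class from its own UMIs of marker genes, and no member of the pathway was a marker. Sertoli-like cells numbered 1128, 519, 854 and 810. Leydig-like cells, the androgen-making cells of the interstitium, numbered 62, 55, 73 and 82. Stromal-like cells, fibroblast-like interstitial cells with Pdgfra and collagens, numbered 2277, 1163, 920 and 606. Myoid-like cells, the contractile cells around the tubules, numbered 208, 341, 595 and 515. Germ-like cells numbered 2884, 2576, 2540 and 3766.

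Cells were classed by these same marker lists, so a high own list and low other lists follow from the rule. The levels are given as a description and are no test of the class names. The summed level of the Sertoli list was 13798 to 20472 CPM (UMIs per 1000000 UMIs of the class) in Sertoli-like cells and 64.9 to 1544 CPM in the Leydig-, stromal-, myoid- and germ-like cells. All 10 Sertoli genes were above 0 in each library, and 7, 10, 10 and 10 of them were found in at least 10% of Sertoli-like cells, and no class had a marker of another class among its 10 leading genes. Germ-like cells at 14 dpp had 0 of their own markers among theirs. The stromal and myoid classes form a range: in 410, 384, 509 and 405 of their cells the smaller of both scores was above 0.5 of the larger. Of these, 144, 218, 386 and 287 were myoid-like, out of 208, 341, 595 and 515 myoid-like cells. Most myoid-like cells thus lay near the cut between both classes. Since the myoid-like part of the merged class was far smaller in the 2-day culture than at 9 dpp, each part is also given apart.

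**Figure D1:**
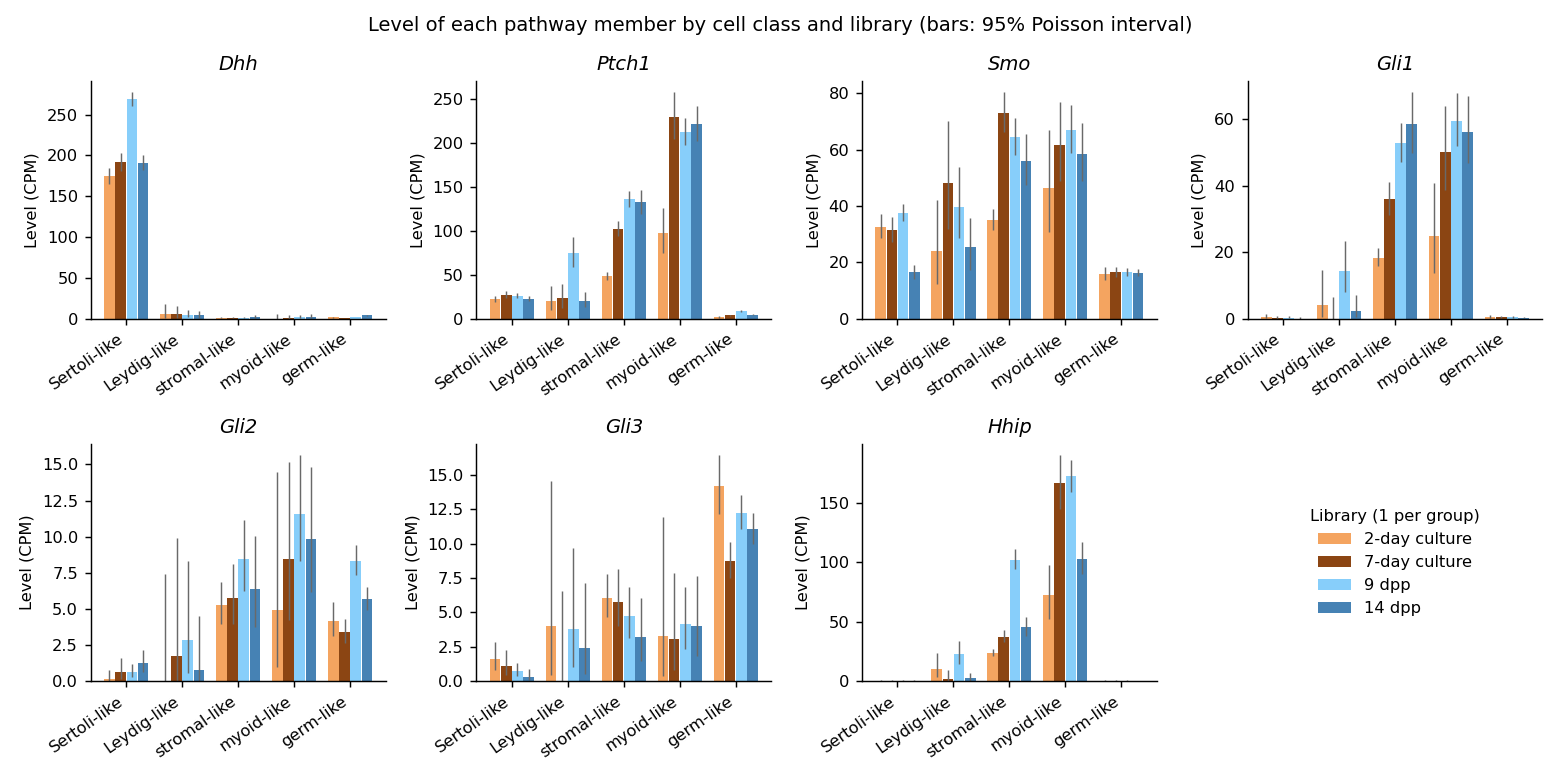
Level of each of the 7 genes in CPM (vertical axis) in 5 cell classes (horizontal axis), with 1 bar per library and the 95% Poisson interval as a line. Dhh stands in Sertoli-like cells, 174 to 269 CPM, while Gli1 and Hhip stand in stromal-like and myoid-like cells and Gli3 is highest in germ-like cells.

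Dhh, the ligand, had 1190, 1199, 3927 and 1840 UMIs in Sertoli-like cells. These correspond to 174 (165 to 185), 192 (181 to 203), 269 (260 to 277) and 191 (183 to 200) CPM. The 9 dpp library was the high one, and the other 3 lay close together. The ratio of the 2-day culture to 9 dpp was 0.649 (0.608 to 0.693), that of the 7-day culture to 14 dpp was 1.0 (0.932 to 1.08), and that of 14 dpp to 9 dpp was 0.712 (0.673 to 0.752). The first and the last of these share the 9 dpp library, and their intervals overlap. The summed Sertoli markers of the same cells stood at 13798, 15348, 18025 and 20472 CPM, so they too were lower in the 2-day culture than at 9 dpp, and their part in the Dhh ratio was not tested.

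Sertoli-like cells held 94.9%, 91.7%, 95.9% and 74.8% of all Dhh UMIs. At 14 dpp a further 19.0% lay in cells whose marker UMIs pointed to more than 1 class, against 2.07% to 5.81% in the other libraries. With every cell thinned to 2000 UMIs, 29.3% (26.0% to 32.8%), 29.2% (25.2% to 33.4%), 41.9% (38.5% to 45.3%) and 34.0% (30.6% to 37.5%) of Sertoli-like cells had a Dhh UMI. Left out as shallower were 409, 22, 14 and 65 Sertoli-like cells. Without thinning these shares were 49.6%, 78.0%, 90.9% and 77.0%, at median depths of 3433.5, 8826, 13993 and 9017 UMIs. Here germ-like cells were taken to stand for Dhh RNA from outside the cell. Their thinned share was 0.418%, 0.0408%, 0.399% and 0.624%, with median depths of 3523.5, 6407.5, 10913 and 6838 UMIs.

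The few Dhh UMIs in germ-like cells numbered 20, 17, 61 and 135. The Sertoli marker UMIs in the same cells, multiplied by the ratio of Dhh to Sertoli marker UMIs in Sertoli-like cells, give 17.5, 16.8, 67.4 and 141 UMIs. Observed counts were 0.905 to 1.14 times those, and in stromal-like cells 0.120 to 0.429 times. Amh, a hormone gene and Sertoli marker, stood at 35.3, 140, 767 and 181 CPM in Sertoli-like cells, so it too was highest at 9 dpp. Of the other ligands, Shh had 0 UMIs in Sertoli-like cells of each library, which allows up to 0.440, 0.480, 0.205 and 0.312 CPM when 3 counts of the class total are taken as the limit, and Ihh had 2, 0, 2 and 2 UMIs.

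Ptch1, the receptor and a response gene, had its highest levels in myoid-like cells. There it stood at 97.4 CPM (74.2 to 126), 230 CPM (204 to 257), 212 CPM (198 to 228) and 221 CPM (202 to 241). In stromal-like cells it stood at 48.7 CPM (44.5 to 53.1), 102 CPM (94.3 to 111), 136 CPM (127 to 146) and 132 CPM (119 to 147). The 2-day culture was below every other library in both classes, with no overlap of intervals. In all 4 libraries the myoid-like interval lay above the stromal-like one.

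Smo, the membrane protein that carries the signal onward, was spread over more cells. In stromal-like cells it stood at 35.2 CPM (31.6 to 39.0), 73.0 CPM (66.1 to 80.3), 64.5 CPM (58.2 to 71.3) and 56.0 CPM (47.6 to 65.4). Myoid-like cells had 46.2, 61.6, 67.0 and 58.4 CPM. Sertoli-like cells had 32.7, 31.4, 37.6 and 16.4 CPM, so 14 dpp was the low library there, at 0.437 times (0.364 to 0.523) the 9 dpp level, and the 7-day culture had 1.91 times (1.54 to 2.37) the 14 dpp level. Germ-like cells had 15.9, 16.5, 16.6 and 16.4 CPM, nearly the same value in each library.

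Gli1, the GLI factor whose transcription follows activation of the pathway, had 222, 285, 580 and 317 UMIs per library, of which 91.0% to 94.7% lay in stromal-like or myoid-like cells. In stromal-like cells it stood at 18.4 CPM (15.8 to 21.2), 36.0 CPM (31.2 to 41.2), 52.7 CPM (47.0 to 58.9) and 58.4 CPM (49.9 to 68.1). Myoid-like cells had 24.8 CPM (13.9 to 40.9), 50.1 CPM (38.7 to 63.8), 59.5 CPM (51.9 to 68.0) and 56.2 CPM (46.8 to 66.9). In vivo the 2 classes did not differ beyond these intervals. Sertoli-like cells had 3, 1, 4 and 0 Gli1 UMIs; the count of 0 allows up to 0.312 CPM by the same limit of 3 counts.

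Gli2 and Gli3, the GLI factors that are present before the signal and serve as activator and, chiefly for Gli3, as repressor, had low counts. Stromal-like cells had 5.28, 5.79, 8.45 and 6.38 CPM of Gli2 and 6.06, 5.79, 4.73 and 3.19 CPM of Gli3. Germ-like cells held most Gli3 UMIs, 68.3%, 78.7%, 85.2% and 90.6% of them. Their Gli3 level was 14.1 CPM (12.1 to 16.4), 8.72 CPM (7.50 to 10.1), 12.2 CPM (11.0 to 13.6) and 11.1 CPM (10.0 to 12.2), above the stromal-like level in each library, with intervals that overlap it in the 7-day culture. Stromal and myoid marker UMIs in germ-like cells would account for only 0.345 to 0.650 Gli3 UMIs, against 172, 181, 374 and 384 observed.

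Hhip, the membrane protein that binds hedgehog ligand and holds it back, had a higher level in myoid-like than in stromal-like cells. Myoid-like cells had 72.7 CPM (52.8 to 97.5), 166 CPM (145 to 190), 172 CPM (159 to 186) and 103 CPM (90.1 to 117). Stromal-like cells had 23.9 CPM (21.0 to 27.1), 37.5 CPM (32.7 to 42.9), 102 CPM (94.4 to 111) and 45.3 CPM (37.8 to 53.9). Thinned to 2000 UMIs a cell, 13.6%, 25.6%, 27.5% and 18.1% of myoid-like cells had a Hhip UMI, and 5.95%, 6.70%, 16.7% and 7.69% of stromal-like cells. Sertoli-like cells had 0%, 0%, 0.119% and 0%. Of all Hhip UMIs, 14.1%, 48.2%, 47.5% and 58.5% lay in myoid-like cells and 78.5%, 47.8%, 46.0% and 32.4% in stromal-like cells. In both classes 9 dpp was high; in myoid-like cells the 7-day culture was about as high.

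**Figure D2:**
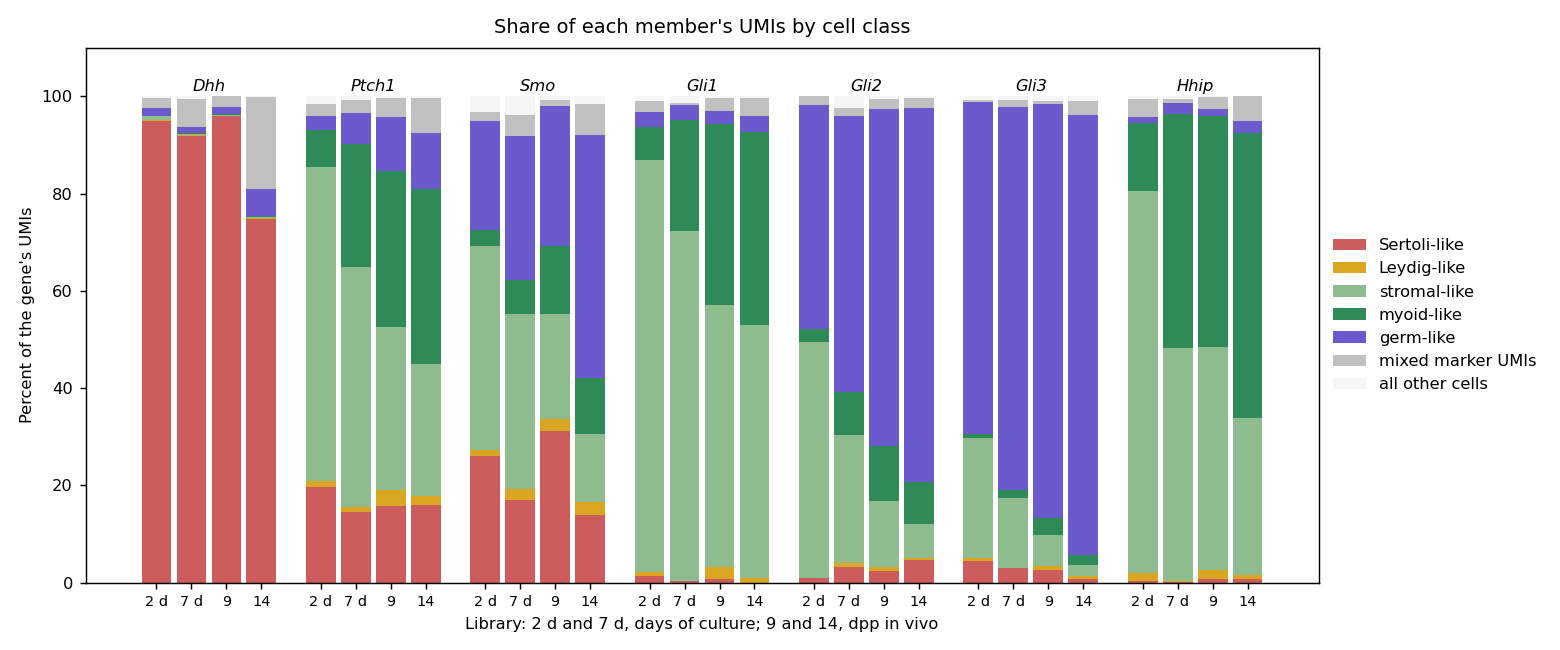
Percent of the UMIs of each gene (vertical axis) that lay in each cell class, with 1 stacked bar per library (horizontal axis). Dhh bars are mostly Sertoli-like, Gli1 and Hhip bars are at least 90.9% stromal-like plus myoid-like, and Gli3 bars are mostly germ-like.

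The first matched comparison asks how response genes in 2-day culture compare with the testis of the same total age. In stromal-like and myoid-like cells together, Ptch1 was at 51.4 CPM against 165 CPM in the 9 dpp library, a ratio of 0.312 (0.282 to 0.343). Gli1 was at 18.7 and 55.3 CPM, a ratio of 0.339 (0.287 to 0.399). Hhip was at 26.7 and 129 CPM, a ratio of 0.207 (0.181 to 0.235).

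Within stromal-like cells alone the ratios were 0.358 (0.320 to 0.401) for Ptch1, 0.348 (0.289 to 0.419) for Gli1 and 0.234 (0.201 to 0.272) for Hhip. Within myoid-like cells they were 0.459 (0.346 to 0.599), 0.416 (0.229 to 0.702) and 0.422 (0.303 to 0.573). So all 3 response genes were lower in the 2-day culture in each class taken apart, and less so than in the merged class.

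Of the 6 members with at least 50 UMIs in the merged class, 3 (Ptch1, Gli1 and Hhip) were lower by at least 1 on the log2 scale of CPM + 1, and 0 were higher. Over all 12174 genes with such counts 7.22% were lower and 5.86% higher by that much. The median log2 ratio of the 6 members was -1.18, and that of all genes -0.18. With TMM scaling the median of all genes in this pair was -0.03, a move of more than 0.1, and Ptch1 stood at -1.52 in place of -1.66. Among the members that are not response genes, Smo had a ratio of 0.547 (0.480 to 0.621), Gli2 of 0.546 (0.385 to 0.767) and Gli3 of 1.31 (0.877 to 1.98). In myoid-like cells alone Gli2 had a log2 ratio of -1.08, so there it too was lower by at least 1. This rests on 3 and 42 UMIs, and the interval of its ratio, 0.0848 to 1.34, includes 1.

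Pdgfra, a stromal marker that is no response gene of the lists used here, stood at 218, 264, 318 and 294 CPM in stromal-like cells. Median UMIs per cell in the merged class were 3719, 4106.5, 5627 and 4128 by library. With cells thinned to 2000 UMIs, 10.8% (9.58% to 12.2%), 24.0% (21.8% to 26.3%), 24.1% (21.9% to 26.3%) and 27.1% (24.4% to 29.9%) of the merged class had a Ptch1 UMI. The 2-day culture was therefore low at equal depth as well, and the intervals of the other 3 libraries overlapped.

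**Figure D3:**
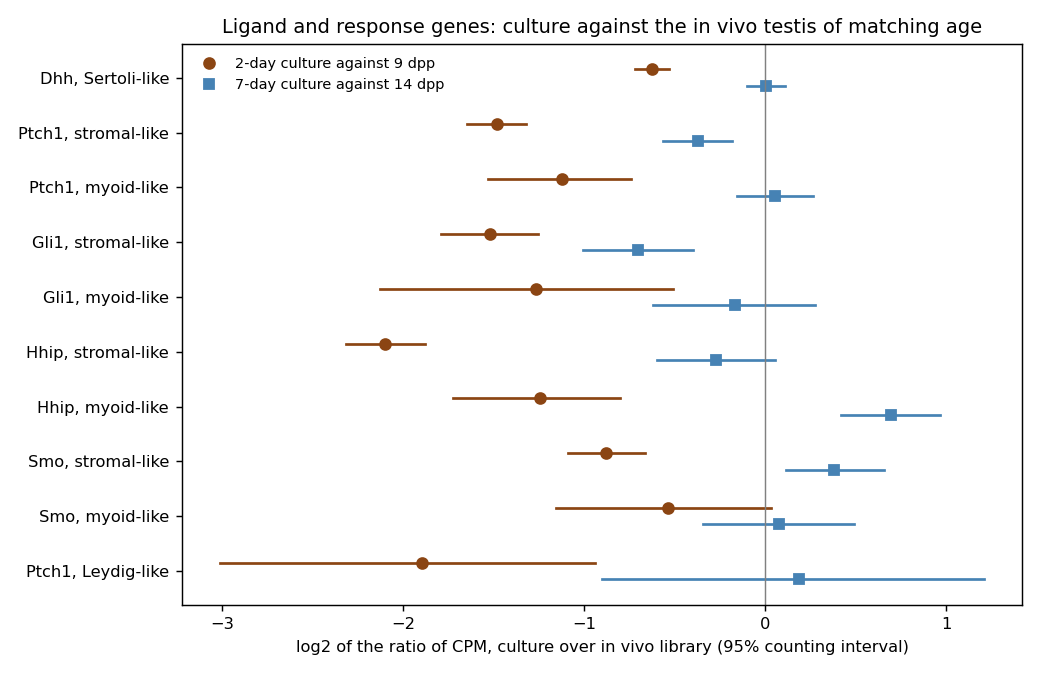
Log2 of the ratio of CPM, culture over in vivo (horizontal axis), for named genes and cell classes (vertical axis), with circles for the 2-day culture against 9 dpp, squares for the 7-day culture against 14 dpp and lines for the 95% counting interval. The circles lie left of 0 for each gene shown, and 9 of their 10 intervals lie wholly below 0; the squares lie nearer 0, with Hhip in myoid-like cells to its right.

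In the 7-day culture, the merged class had 126 CPM of Ptch1 against 172 CPM at 14 dpp, a ratio of 0.734 (0.667 to 0.807). Gli1 was at 38.6 and 57.4 CPM, a ratio of 0.671 (0.567 to 0.795). Hhip was at 61.4 and 70.9 CPM, a ratio of 0.867 (0.752 to 1.0). Of the 6 members, 0 were lower and 0 were higher by at least 1 on the log2 scale, against 4.81% and 4.92% of all genes. The merged Ptch1 ratio lies below that of either class taken apart, and with each cell weighted equally the log2 ratio of Hhip was 0.05. The median of the members was -0.25 and that of all genes -0.02. Smo had a ratio of 1.24 (1.07 to 1.44), so it stood above the 14 dpp level where in the first pair it stood below the 9 dpp level, and the difference between the pairs was not tested. Gli2 had a ratio of 0.796 (0.507 to 1.25) and Gli3 of 1.49 (0.826 to 2.78).

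By class, Ptch1 and Gli1 were lower in stromal-like cells, with ratios of 0.773 (0.678 to 0.883) and 0.615 (0.499 to 0.760). In myoid-like cells the ratios were 1.04 (0.896 to 1.20) for Ptch1 and 0.892 (0.651 to 1.21) for Gli1, both with intervals that include 1. Hhip in myoid-like cells had a ratio of 1.62 (1.34 to 1.95), and in stromal-like cells 0.828 (0.662 to 1.04). When classes were taken from clusters of each library instead, no cluster of either culture was named myoid-like, and Ptch1 in cells then called stromal-like had a log2 ratio of 0.14 in place of -0.37.

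Between the 2 cultures, the merged class of the 7-day culture had 2.45 times (2.20 to 2.73) the Ptch1, 2.06 times (1.71 to 2.48) the Gli1 and 2.30 times (1.98 to 2.68) the Hhip of the 2-day culture. Of the 6 members 3 were higher by at least 1 on the log2 scale, and 0 lower, against 3.32% and 3.52% of all genes. Dhh in Sertoli-like cells differed by a ratio of 1.10 (1.01 to 1.19). In stromal-like cells alone the ratios were 2.11 (1.86 to 2.38) for Ptch1, 1.96 (1.60 to 2.40) for Gli1 and 1.57 (1.30 to 1.89) for Hhip, so Gli1 and Hhip, at log2 ratios of 0.93 and 0.63, did not reach 1 there, while Smo did at 1.03. In myoid-like cells they were 2.36 (1.78 to 3.17), 2.02 (1.14 to 3.82) and 2.29 (1.65 to 3.24). This comparison shares its libraries with the matched ones and is no separate evidence.

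Between 9 and 14 dpp in vivo, Ptch1 and Gli1 in the merged class had ratios of 1.04 (0.958 to 1.13) and 1.04 (0.897 to 1.20), 14 dpp over 9 dpp. Hhip had a ratio of 0.550 (0.487 to 0.619). Of the 6 members 0 were lower and 0 higher by at least 1 on the log2 scale, against 2.85% and 2.23% of all genes. Of Ptch1, Gli1 and Hhip only Hhip had an interval that leaves out 1. It did so in stromal-like cells (0.443, 0.363 to 0.537) and in myoid-like cells (0.598, 0.512 to 0.696). In stromal-like cells alone its log2 ratio was -1.16, so there it was lower by at least 1.

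The proportions among the response genes can be given without a library total, as UMIs per 100 Ptch1 UMIs of the same cells. For Gli1 in the merged class this was 36.4, 30.6, 33.5 and 33.4. Taken apart it was 37.8, 35.1, 38.8 and 44.1 in stromal-like cells and 25.4, 21.8, 28.1 and 25.4 in myoid-like cells. For Hhip it was 49.2, 36.6, 75.4 and 34.2 in stromal-like cells, where 9 dpp was the high library. In myoid-like cells it was 74.6, 72.5, 81.2 and 46.6, so there 14 dpp was the low library and both cultures were nearer to 9 dpp.

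**Figure D4:**
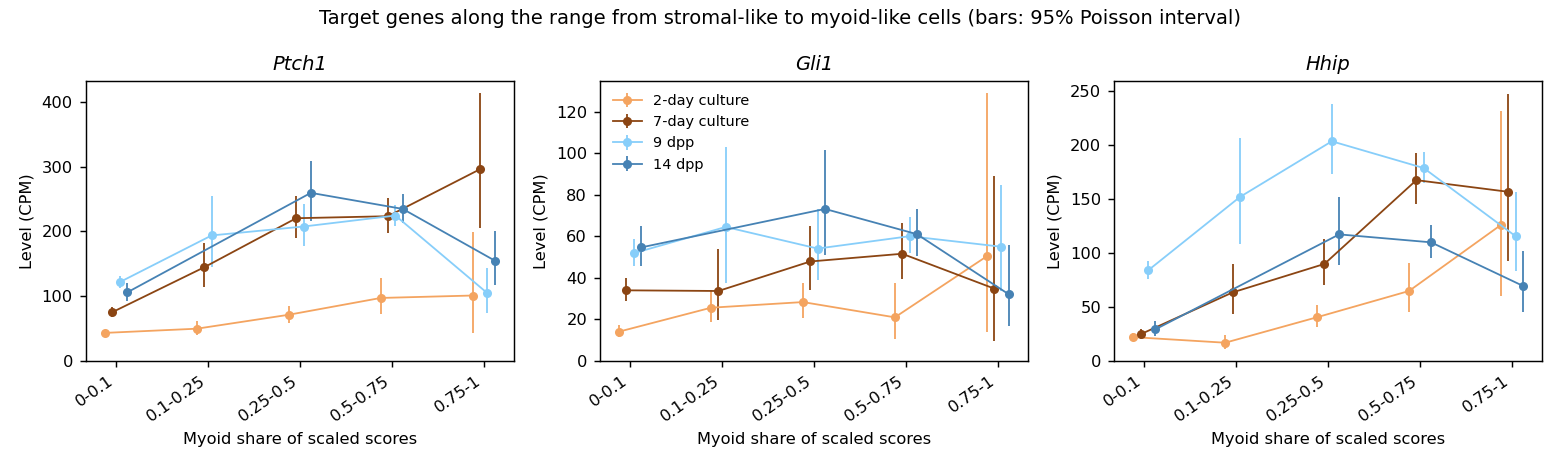
Level of Ptch1, Gli1 and Hhip in CPM (vertical axis) in merged-class cells binned by the myoid share of the stromal and myoid scores (horizontal axis), with 1 line per library, the 95% Poisson interval as bars and bins of at least 20 cells. Ptch1 is higher in the bins from 0.25 to 0.75 than at the stromal end, 43.0 against 96.9 CPM in the bin up to 0.75 of the 2-day culture, and the 2-day culture lies lowest for all 3 genes in each bin up to a share of 0.75, but not for Gli1 and Hhip in the last bin.

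Along the range from stromal to myoid marker content, Ptch1 at the stromal end (myoid share up to 0.1) was at 43.0, 75.0, 121 and 105 CPM. In the bin from 0.5 to 0.75 it was at 96.9, 223, 224 and 234 CPM. Hhip was at 21.8, 24.5, 83.6 and 29.1 CPM at the stromal end and at 64.6, 167, 179 and 110 CPM in that bin. Gli1 was at 14.0, 33.9, 51.9 and 54.6 CPM at the stromal end and at 20.9, 51.6, 60.0 and 61.0 CPM in that bin. In bins of the same myoid share, Ptch1, Gli1 and Hhip of the 2-day culture stayed below the other libraries up to a share of 0.75, though some intervals overlap. The Hhip interval at the stromal end overlaps those of the 7-day culture and 14 dpp, and the Gli1 interval overlaps the same libraries in the bin from 0.1 to 0.25 and the 7-day culture in the bin from 0.25 to 0.5. In the last bin, of 31, 36, 64 and 88 cells, Hhip was at 126, 157, 115 and 69.4 CPM and Gli1 at 50.3, 34.8, 55.0 and 32.0 CPM, so there the 2-day culture was not the lowest. Ptch1 was at 101, 296, 104 and 155 CPM in that bin, and at 9 dpp this was below the stromal end. The bins are ranges of a score over cells of 1 library, and the bin from 0.1 to 0.25 held only 10 cells at 14 dpp.

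Leydig-like cells, which are known to depend on Dhh, had less Ptch1 than stromal-like cells in all 4 libraries. Their 10, 13, 79 and 25 UMIs correspond to 20.1 CPM (9.64 to 37.0), 23.2 CPM (12.4 to 39.7), 74.8 CPM (59.2 to 93.2) and 20.4 CPM (13.2 to 30.1). The 9 dpp library was high and the other 3 overlapped. The ratio was 0.269 (0.124 to 0.521) for the 2-day culture against 9 dpp and 1.14 (0.535 to 2.31) for the 7-day culture against 14 dpp. Only Ptch1 and Smo reached 50 UMIs among the members in this class. Smo stood at 24.1, 48.2, 39.8 and 25.3 CPM, with a ratio of 0.606 (0.291 to 1.17) in the first matched pair and 1.91 (1.10 to 3.31) in the second. In the first matched pair 1 of the 2, Ptch1, was lower by at least 1 on the log2 scale and 0 were higher, against 12.2% and 5.79% of all genes. In the second pair 0 were lower and 0 higher, against 8.5% and 6.95%.

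Gli1 in Leydig-like cells had 2, 0, 15 and 3 UMIs and Hhip 5, 1, 24 and 3, so both counts were also largest at 9 dpp. Stromal marker genes stood at 760, 875, 1701 and 1389 CPM in the same cells, and their part in these values was not tested. If all stromal and myoid marker UMIs there came from other cells, 1.37, 4.01, 17.6 and 15.0 Ptch1 UMIs would come with them. These lie below the observed counts in each library. Whether Leydig-like cells make such marker RNA themselves was not tested. For Gli1 the same estimate was 0.499, 1.23, 5.91 and 5.01 UMIs and for Hhip 0.710, 1.96, 13.8 and 6.18, so both genes were observed below it in the 7-day culture and at 14 dpp. Cdon, a co-receptor that helps ligand bind Patched, stood higher in Leydig-like than in stromal-like cells of each library: it was at 66.3, 107, 239 and 108 CPM in Leydig-like cells and at 3.91, 7.54, 19.4 and 16.3 CPM in stromal-like cells. Its ratio was 0.278 (0.187 to 0.401) in the first matched pair and 0.996 (0.722 to 1.36) in the second. The steroid enzyme gene Cyp17a1, a marker of the class, stood at 66.3, 209, 5152 and 1899 CPM in them.

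Sertoli-like cells, the ligand source, also had Ptch1, at 22.1 CPM (18.7 to 26.0), 27.4 CPM (23.4 to 31.8), 25.9 CPM (23.3 to 28.6) and 22.9 CPM (19.9 to 26.1). The 4 intervals overlapped. Observed counts of 151, 171, 378 and 220 UMIs were 29.9 to 35.7 times what stromal and myoid marker UMIs in those cells would bring. Per 100 Ptch1 UMIs there were 1.99, 0.585, 1.06 and 0 Gli1 UMIs in Sertoli-like cells, where the 3, 1, 4 and 0 Gli1 UMIs compare with 1.80, 1.47, 3.81 and 2.46 that stromal and myoid marker UMIs would bring. For the 3 members with at least 50 UMIs in Sertoli-like cells (Dhh, Ptch1 and Smo), 0 were lower and 0 higher by at least 1 on the log2 scale in either matched pair. Over all 12010 genes the shares lower were 6.1% (first pair) and 6.93% (second pair), and the shares higher 6.54% and 10.2%.

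Germ-like cells had Smo, Gli2 and Gli3 at 49.0 times or more of what stromal and myoid marker UMIs would bring. Ptch1 was at 3.89 to 12.6 times that estimate. Gli1 had 7, 9, 15 and 10 UMIs, 1.79 to 3.40 times it, and Hhip 4, 10, 19 and 10, 1.15 to 2.30 times it. A split of germ-like cells by Zbtb16 and Uchl1, markers of spermatogonia, against Sycp1 and Tex101, markers of meiotic cells, was added after the data were seen. On the spermatogonial side Smo stood at 20.6, 26.2, 20.6 and 26.4 CPM, and on the meiotic side at 9.06, 10.2, 7.07 and 6.63 CPM. Gli3 stood at 16.8, 14.3, 13.7 and 15.9 CPM and at 10.5, 4.79, 8.38 and 6.23 CPM. Ptch1 stood at 2.75, 8.07, 10.8 and 7.95 CPM and at 0.604, 1.02, 3.59 and 1.22 CPM. Smo, Gli3 and Ptch1 were thus higher on the spermatogonial side in all 4 libraries. Gli2 was not: it stood at 3.05, 3.84, 7.04 and 5.16 CPM there and at 5.64, 2.91, 11.5 and 6.17 CPM on the meiotic side. Cells of the spermatogonial side were also deeper, with medians of 5383, 8081, 14575 and 12829 UMIs against 2827.5, 6014.5, 7224 and 4883. Foxf1, a hedgehog target in mesenchyme of other organs, was found on the spermatogonial side too, at 3.82, 25.9, 43.2 and 40.5 CPM, and had at most 4 UMIs in the merged stromal and myoid class of any library.

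The other pathway genes were 46 in 5 lists. In the merged stromal and myoid class, 37 had at least 50 UMIs. In the 2-day pair 3 of the 37 were lower by at least 1 on the log2 scale (Cdon, Ccnd2 and Nr2f2) and 2 higher (Scube1 and Scube2), with a median of -0.21 against -0.18 for all genes. Over all genes 7.22% were lower and 5.86% higher. In stromal-like cells alone the log2 ratios of Ccnd2, Nr2f2 and Scube1 were -0.89, -0.80 and 0.66, so these 3 did not reach 1 there, while Cdon (-2.06) and Scube2 (2.36) did. In the 7-day pair 0 were lower and 3 higher (Scube1, Scube2 and Nr2f1), with a median of -0.07 against -0.02, where 4.81% and 4.92% of all genes were lower and higher. In stromal-like cells alone Cdon had a log2 ratio of -1.02 in this pair, so there it was lower by at least 1 in both matched pairs. The 14 measured genes of signal transduction, among them Sufu, a GLI inhibitor, had 0 in either direction in both pairs, and so did the 8 of cilium transport. The 8 measured mesenchymal targets had 2 lower and 0 higher against the 9 dpp library, and 0 lower and 1 higher (Nr2f1) in the second pair.

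Gas1, a co-receptor that is held down by hedgehog signalling in other tissues, stood at 175, 196, 120 and 142 CPM in the merged class, with ratios of 1.46 (1.35 to 1.57) and 1.38 (1.26 to 1.52). Its level was higher in stromal-like than in myoid-like cells, and the share of myoid-like cells was lower in the cultures. In stromal-like cells the ratios were 1.18 (1.09 to 1.28) and 1.11 (1.002 to 1.22), and in myoid-like cells 0.947 (0.651 to 1.34) and 1.21 (0.932 to 1.55). Boc, a further co-receptor, stood at 29.0, 45.7, 40.6 and 39.7 CPM, with ratios of 0.713 (0.612 to 0.829) and 1.15 (0.963 to 1.38). Sufu stood at 10.3, 11.3, 11.6 and 9.08 CPM, and both its intervals, 0.677 to 1.17 and 0.853 to 1.83, include 1.

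Scube1 and Scube2 encode secreted proteins; Scube2 helps hedgehog ligands leave the producing cell. Scube1 had 151, 149, 56 and 9 UMIs in the merged class, with log2 ratios of 1.12 and 3.00 in the matched pairs. Scube2 had 52, 49, 3 and 6 UMIs, with log2 ratios of 2.14 and 1.87. Both were higher in each culture than in each in vivo library on the CPM scale, with 13.9, 21.3, 5.87 and 1.78 CPM of Scube1 and 4.80, 7.00, 0.314 and 1.18 CPM of Scube2.

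In Sertoli-like cells 31 of the 46 genes were measured, and over all genes 6.1% were lower and 6.54% higher in the 2-day pair and 6.93% and 10.2% in the other. In the 2-day pair 2 were lower (Tulp3 and Ccnd2) and 3 higher (Scube2, Gas1 and Bcl2), and in the 7-day pair 1 was lower (Tulp3) and 4 higher (Scube2, Gas1, Evc and Bcl2). Tulp3, which brings receptors into the cilium, stood at 34.0, 40.8, 99.9 and 106 CPM, so both cultures were low, with log2 ratios of -1.53 and -1.36. Bcl2, a survival gene, stood at 12.9, 18.1, 4.65 and 2.81 CPM, and Gas1 at 11.6, 8.48, 2.53 and 3.22 CPM. Stromal markers in these Sertoli-like cells summed to 130, 44.3, 35.9 and 21.3 CPM, also higher in the cultures, and their part in the Gas1 and Bcl2 values was not tested. In Leydig-like cells 15 of the 46 were measured, 3 were lower in the 2-day pair (Cdon, Osr1 and Nr2f2) and 2 in the 7-day pair (Cul3 and Ccnd2), and 0 and 2 (Boc and Osr1) were higher. Over all genes of that class 12.2% and 8.5% were lower and 5.79% and 6.95% higher.

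Because the study concerns inflammation, stromal-like cells of each culture were ordered by their UMIs of 8 inflammation genes (Saa3, Hp, Lcn2, C3, Ccl2, Cxcl1, Cxcl5 and Il6) and cut into 3 groups of equal size, a description added after the data were seen. Ptch1 in the lowest, middle and highest group was at 68.4, 41.9 and 39.1 CPM in the 2-day culture and at 173, 112 and 36.6 CPM in the 7-day culture. Gli1 was at 27.2, 19.6 and 9.92 CPM and at 55.9, 38.8 and 17.1 CPM. Hhip was at 46.6, 17.9 and 11.3 CPM and at 70.4, 33.5 and 14.3 CPM.

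The 3 response genes were thus lower in the highest than in the lowest group of both cultures. Pdgfra was at 214, 216 and 224 CPM and at 284, 267 and 244 CPM, and Gas1 was higher toward the highest group, at 121, 175 and 238 CPM and at 180, 220 and 259 CPM. Acta2, a myoid marker, was also lower toward the highest group, at 2221, 1513 and 1190 CPM and at 2304, 1600 and 813 CPM. Median UMIs per cell were 3260, 4059 and 4288 and 3811.5, 4400 and 4950. The part of the myoid content and of depth in the difference was not tested. The groups are ranges of cells within 1 library and not samples.

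**Figure D5:**
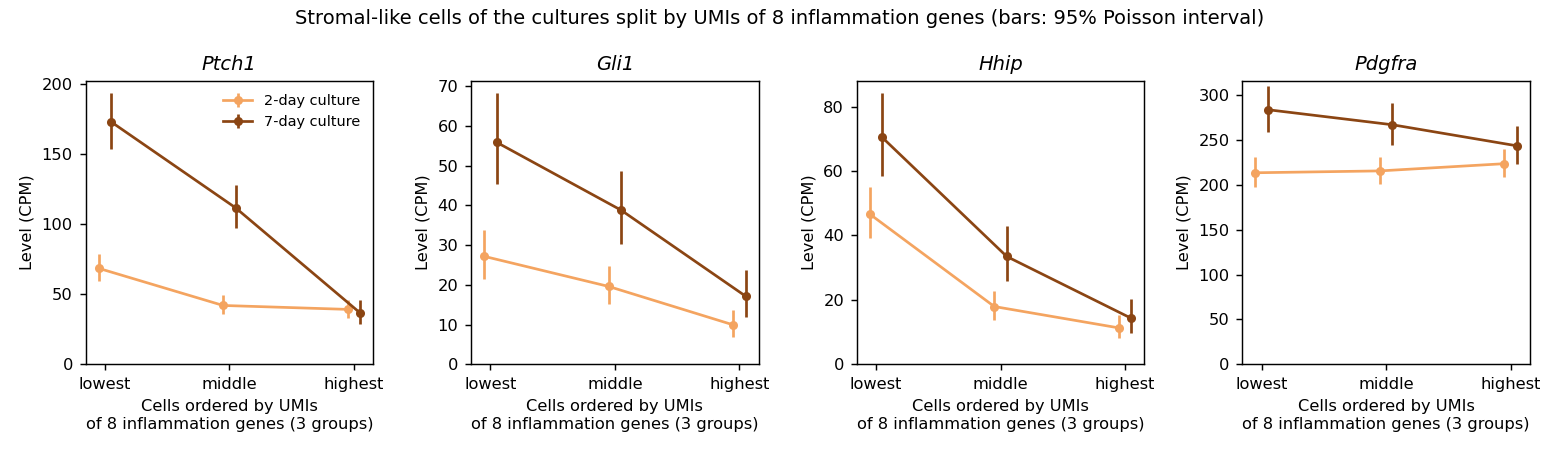
Level in CPM (vertical axis) of 3 response genes and of Pdgfra in stromal-like cells of the cultures, in 3 groups of cells ordered by UMIs of 8 inflammation genes (horizontal axis), with 1 line per culture library and 95% Poisson intervals. The lines of Ptch1, Gli1 and Hhip go down to the highest group, to 36.6 CPM for Ptch1 in the 7-day culture, while those of Pdgfra stay between 214 and 284 CPM.

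The genes with the most similar pattern over the 20 sums of class and library, by Pearson correlation of log2(CPM + 1) among 13800 genes, are given as a description. The sums of a library share its cells and depth. For Dhh they were Rhox8 (r = 0.98), itself a Sertoli marker, Adgrg1 (0.97) and Adipor1 (0.96). For Ptch1 they were Myl9, Kdelc2 and Sptbn1, each at 0.95. For Gli1 they were Hic1, Fgf2 and Hs3st3a1, at 0.98, 0.98 and 0.98. For Hhip they were Cspg4 (0.98), which is on the pericyte marker list, Flnc (0.97) and Casq2 (0.97).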

How the data were processed

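The deposited counts are whole UMI counts per gene and cell, which the authors made from 10x Chromium 3′ v2 libraries, per the labels' protocols, with Cell Ranger 3.0.2 and mm10, per the submitters' processing notes. No further normalization is recorded. Barcodes under 500 genes or above 20% mitochondrial UMIs were dropped, and doublets called by Scrublet (scanpy 1.11.5, expected rate 6%) were removed, 1.89% to 3.55% of the cells that passed.

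A cell took the class whose summed marker level, relative to the typical level of that list, was highest, given at least 3 marker UMIs from 2 markers, a score of at least 0.1 and a second class at no more than 0.5 of the first. Stromal and myoid scores were not held against each other in that last step. Lists for lymphocytes, neutrophils, mast cells, Schwann cells and mesothelium or rete were too sparse to name a class.

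UMIs were summed per class and library and given as CPM with exact Poisson intervals. Ratios have exact conditional binomial intervals and log2 ratios use CPM + 1. Shares of cells were computed after thinning to 2000 UMIs, with Clopper-Pearson intervals. Reads of 1 molecule share a UMI, but intervals still cover counting error only. Counts of called genes take those with at least 50 UMIs in the class. Class calls and intervals were also run on counts simulated from the summed profiles of cells already called. Such data cannot show wrong class calls in real cells or spread between libraries.

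Named besides the 7 members were 4 further pathway genes by rule (Gas1, Cdon, Boc and Sufu), those of the 46 pathway genes outside the members that moved by at least 1 on the log2 scale in the same direction in both matched pairs, and the 3 genes most alike in pattern. Genes listed with a count of 5 or fewer, Foxf1, Amh, Shh, Ihh, Pdgfra, Acta2 and Cyp17a1 were named after their values were seen. 1 gene of the lists is not reported here and was left out of their counts. The members and lists were chosen with earlier results of these data known. Alternatives were TMM scaling (edgeR 4.0.16), equal weight for each cell, other pseudocounts, filters and thinning depths, classes from Leiden clusters and subtraction of the germ-like level. For Smo, Gli2, Gli3 and Ptch1 that level exceeded the estimate from stromal and myoid marker UMIs. Its use as background for them was not tested. A stricter class rule, the germ-like split, the myoid bins and the groups by inflammation UMIs were added after the data were seen.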

Additional observations from a re-analysis of the deposited data

Results flagged for a closer look

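Smo in stromal-like cells and Hhip in myoid-like cells went in opposite directions in the matched pairs. In the merged stromal-like and myoid-like class the log2 ratio of Smo was -0.85 for the 2-day culture against 9 dpp and 0.31 for the 7-day culture against 14 dpp. In stromal-like cells alone the Smo values were -0.86 and 0.38. In myoid-like cells they were -0.53 and 0.08, both with counting intervals that include 0. Hhip in myoid-like cells had log2 ratios of -1.23 and 0.69 in the same order, whereas in the merged class it was -2.23 and -0.20 and in stromal-like cells -2.05 and -0.27. The counting intervals of the merged and the stromal-like Hhip value of the 7-day pair include 0. With 1 library per group the difference between the pairs was not tested.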

How the results depend on the processing

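No paired analysis was possible because each group had 1 library and no replicate numbers, and no library could be left out. Over 18 main results, 76 of 90 alternative values stayed within the interval of the main value, 14 moved outside it and 0 reversed, that is, changed sign where the main interval leaves out 0. Over 24 further values of single genes, 174 of 186 stayed, 11 moved and 1 reversed. Among these same values, 2 of the 90 and 5 of the 186 changed sign where the main interval includes 0. They are already counted above as stayed or moved. With each cell weighted equally, the first matched pair in the merged class gave log2 ratios of -1.37 for Ptch1, -1.2 for Gli1 and -1.81 for Hhip, and the second gave -0.26 for Ptch1 and 0.05 for Hhip, the last on the other side of 0. With TMM scaling, Ptch1 in the first pair was -1.52 and the median of the other pathway genes -0.06 in place of -0.21. The share of merged-class cells with a Ptch1 UMI was 5.75%, 12.1%, 13.2% and 14.7% when thinned to 1000 UMIs and 18.5%, 37.2%, 52.4% and 44.0% without thinning, which moves with depth by construction. With classes from Leiden clusters, Ptch1 in stromal-like cells of the second pair was 0.14 in place of -0.37; no cluster of either culture was then named myoid-like, so myoid-like results have no value there. Apart from thinning, the cause of these moves was not tested.

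Low counts limit Gli2 and Gli3 in stromal-like and myoid-like cells, and the number of cells, 55 to 82 a library, limits the Leydig-like values.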
